A study of Papio hamadryas with 17 samples.

Results

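Megalin and cubilin protein reabsorption was described through 7 genes, LRP2, CUBN, AMN, DAB2, LRPAP1, CLCN5 and OCRL, in RNA sequencing of kidney cortex from 17 baboons (Papio hamadryas). The members were the transcripts listed under these symbols in the deposited tables, 1 table per sex, and their values were added up to 1 level per gene. All 7 were found among the 13851 genes of the female table, and 6 of them among the 9819 genes found in both tables. The male table was held in part, without a row for OCRL, so OCRL was analysed in females only. Comparisons between the sexes and shares of all tested genes rest on the part held. The 17 member transcripts included 14 found in both tables, which were all the transcripts of LRP2, CUBN, AMN, DAB2, LRPAP1 and CLCN5.

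The 8 females were labelled with ages of 15 to 19 and the 9 males with ages of 6 to 13, without a unit. Each animal gave 1 biopsy and 1 library, no treatment was labelled, and all animals of both sexes had eaten a low salt control chow for life. Biopsies were guided by ultrasound and went into liquid nitrogen, and the animals had received ketamine, isoflurane and buprenorphine. The library names formed 1 series in females and 2 in males, called series A (males 1 to 5) and series B (males 6 to 9) here, so sex, age and library series cannot be told apart.

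Megalin, encoded by LRP2, and cubilin, encoded by CUBN, are the large receptors of the proximal tubule brush border that take filtered albumin, vitamin carriers, hormones and enzymes out of the primary urine. Cubilin has no membrane span of its own and reaches the surface with amnionless (AMN), megalin is chaperoned by the receptor-associated protein (LRPAP1), and the adaptor DAB2 links the tail of megalin to clathrin-coated pits. The chloride/proton exchanger encoded by CLCN5 serves endosome acidification and the lipid phosphatase encoded by OCRL acts on endosomal phosphoinositides. Loss of either gives human kidney disease with low molecular weight proteinuria.

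A set of 3 libraries stood apart from the rest and was treated separately throughout. In female 1, female 2 and male 6 the skeletal muscle genes found in both tables (3 of a list of 12: ACTA1, CKM and ATP2A1) made up 17.7%, 20.9% and 13.8% of the signal shared by both tables, against at most 0.0093% in the other 14 libraries. These are called the muscle-rich libraries below, and levels and comparisons rest on the other 14 (6 females, 8 males) unless stated. Signal is the deposited value minus its offset of 1, a scaled abundance without a stated unit. It has no correction for transcript length that could be seen, so levels are compared between libraries and not between genes. Total shared signal ranged from 259197 to 440508 in the 14 libraries and from 540174 to 670142 in the muscle-rich ones. The smallest increment between low values, which is larger at lower depth, differed 6.58-fold between libraries, and the depth itself is unknown.

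Markers of kidney tubule segments were detected in all 14 libraries. The mean log2(signal + 1) of the proximal tubule list, 17 of 18 genes without the members and among them MIOX and AQP1, was 3.63 to 7.86 in females and 7.67 to 9.02 in males. It was 2.10, 2.09 and 3.73 in the muscle-rich libraries, where SLC5A2, the glucose transporter of the early proximal tubule, was listed at 0 in female 1 and female 2. SLC5A2 was also listed at 0 in female 3, whose value for that list was the lowest of the 14 at 3.63. The thick ascending limb list (6 of 7 genes, led by UMOD, SLC12A1 and KCNJ1) was at 5.82 to 7.65 in females and 6.38 to 7.65 in males, and the highest female value was that of female 3. The lists of collecting duct and distal tubule (7 of 7 genes) and intercalated cells (6 of 6) were at 3.93 to 6.64 and 4.01 to 5.95 in the 14 libraries. Podocyte (3 of 7 genes), macrophage (4 of 7) and endothelial (3 of 5) lists are partial and were at 2.40 to 6.15, 1.96 to 3.16 and 3.10 to 4.55.

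LRP2 (gene21239, sequence NC_018163.2, 54872200 to 55087351, minus strand, 1 transcript) had a lowest, median and highest signal of 7.98, 60.8 and 121 in the 6 females and of 134, 206 and 294 in the 8 males. The groups did not overlap, and female 3 lay far below the other females, which started at 41.2. The female mean was 67.1 ± 42.6 (SD, n = 6) and the male mean 214 ± 56.4 (SD, n = 8). With limma on log2(signal + 1), the female minus male difference was -2.01 (SE 0.44, adjusted p = 0.00224), a 4.02-fold higher level in males. In biopsies, fewer proximal tubule cells and less RNA per cell cannot be told apart.

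CUBN (gene35560, NW_018822938.1, 121671 to 430418, plus strand, 1 transcript) followed with 8.83, 121 and 238 in females and 232, 390 and 541 in males. Female 7, the highest female, lay just above male 2, the lowest male, and the remaining libraries were separate. The female mean of 134 ± 86.0 (SD, n = 6) stood against a male mean of 389 ± 119 (SD, n = 8), and the limma difference was -1.98 (SE 0.54, adjusted p = 0.00890).

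AMN (gene14702, NC_018158.2, 159849246 to 159861023, plus strand, 6 transcripts) had 16.7, 111 and 141 in females and 90.2, 158 and 208 in males. The groups overlapped widely, since 5 of the 6 females lay between 80.4 and 141, and female 3 was again the lowest. The female mean was 98.0 ± 44.9 (SD, n = 6) and the male mean 157 ± 39.3 (SD, n = 8). The limma difference of -0.88 (SE 0.38, adjusted p = 0.0729) did not pass the threshold of 0.05.

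DAB2 (gene11151, NC_018157.2, 39063589 to 39117403, minus strand, 3 transcripts) had 38.5, 91.3 and 132 in females and 186, 260 and 326 in males, without overlap. The female mean was 92.6 ± 35.1 (SD, n = 6) and the male mean 264 ± 52.0 (SD, n = 8). Its difference of -1.58 (SE 0.24, limma adjusted p = 0.000181) had the smallest p of the 6 genes.

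LRPAP1 (gene9407, NC_018156.2, 3557635 to 3583142, minus strand, 2 transcripts) had 68.7, 91.4 and 117 in females and 108, 149 and 238 in males. The groups overlapped, and female 3, lowest for the receptors, was among the 2 highest females at 116, with female 7 at 117. The difference was -0.68 (SE 0.17, limma adjusted p = 0.00564).

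CLCN5 (gene32802, NC_018172.2, 46869774 to 47026765, plus strand, 1 transcript) was low, at 3.46, 4.55 and 6.18 in females and 4.71, 6.93 and 7.86 in males. Female 3 had the highest female value, and the groups overlapped. The difference was -0.50 (SE 0.15, limma adjusted p = 0.0146).

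**Figure D1:**
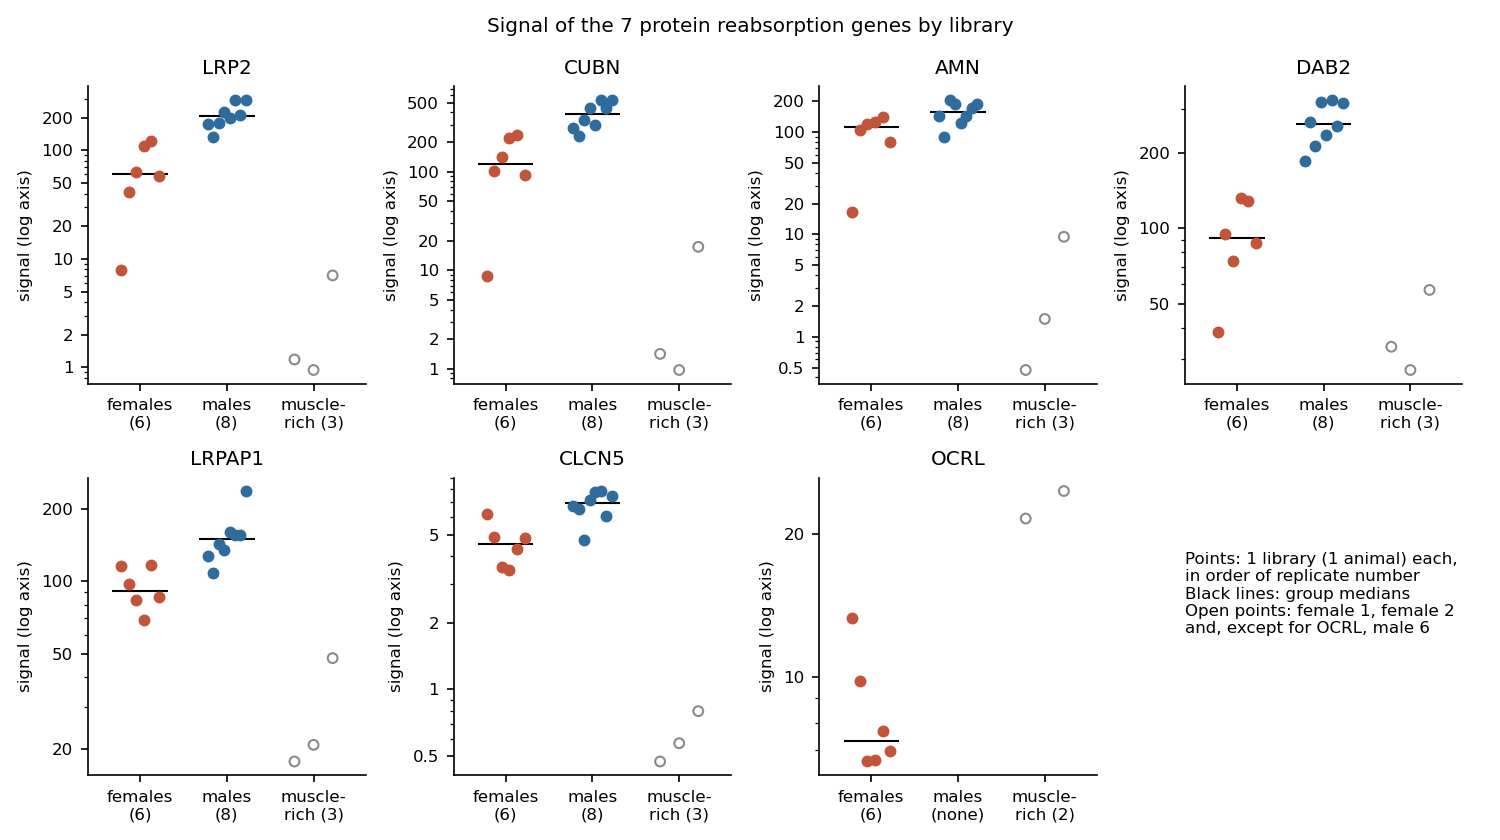
Signal of the 7 genes on a log axis, 1 point per library, for 6 females (red), 8 males (blue) and the muscle-rich libraries (open grey), with black lines at group medians. LRP2 and DAB2 do not overlap between the sexes, female 3 is the lowest female for LRP2, CUBN, AMN and DAB2, and OCRL, shown for females only, is the 1 gene with its highest values in the muscle-rich libraries.

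Of the 6 genes, 5 were called, all higher in males, in a setting where 38.3% of all 9533 tested genes were called and 36.0% were called higher in males. The median difference of all tested genes was -0.35, so LRP2, CUBN, DAB2, AMN, LRPAP1 and CLCN5 lay -1.66, -1.63, -1.24, -0.54, -0.33 and -0.15 from it. In the values as deposited LRP2 and DAB2 were higher in males without overlap, as were 1129 of the 9533 tested genes (11.8%). By the size of the difference, LRP2 stood at the 1.07 percentile of all tested genes, CUBN at 1.20, DAB2 at 3.05, AMN at 17.2, LRPAP1 at 27.0 and CLCN5 at 38.4, counted from the most male-biased gene.

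Scaling each library to the same median moved the median difference of all genes from -0.35 to 0.03, and the split of calls from 3436 higher in males and 212 higher in females to 1422 and 1378. LRP2 (-1.56, limma adjusted p = 0.0213) and DAB2 (-1.13, limma adjusted p = 0.00479) remained called, beside 29.4% of all genes. Both then overlapped between the sexes, while 399 of the 9533 tested genes were higher in males without overlap. CUBN (-1.53) missed the threshold with a limma adjusted p of 0.0548, and the values of LRPAP1 (-0.22) and CLCN5 (-0.11) lost their calls. With upper quartile scaling, CUBN joined LRP2 and DAB2, a count of 3 of 6 beside 29.2% of all genes. LRP2 was then higher in males without overlap, as were 410 of the 9533 genes, and DAB2 overlapped.

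Leaving out female 3 gave smaller differences of the receptors, with -1.50 for LRP2 and -1.33 for CUBN (limma adjusted p = 0.000376 and 0.00123), and the same 5 genes were called beside 41.4% of all genes. With female 3 left out and median scaling together, LRP2, CUBN and DAB2 were called beside 27.7% of all genes, and the AMN difference changed sign to 0.06. With all 17 libraries only DAB2 was called (-1.71, limma adjusted p = 0.00992) beside 13.3% of all genes. LRP2 then had -2.65 (limma adjusted p = 0.0606) and CUBN -2.86 (limma adjusted p = 0.0673), larger differences with larger spread.

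Within the library series the comparison could be made against each set of males alone. Against the 5 males of series A, LRP2, DAB2 and LRPAP1 were called beside 20.8% of all genes, and against the 3 males of series B, CUBN was called as well beside 32.9%. LRP2 averaged 183 ± 34.1 (SD, n = 5) in series A and 267 ± 46.1 (SD, n = 3) in series B. With age as a term, limma called 0 of the 6 genes and 0.0105% of all genes (1 gene), and 0 of the 6 had an unadjusted p under 0.05, as 517 of the 9533 genes did. Ages did not overlap between the sexes, and under this term LRP2 had a difference of -0.78 (SE 1.29) and AMN one of 0.41 (SE 1.08).

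**Figure D2:**
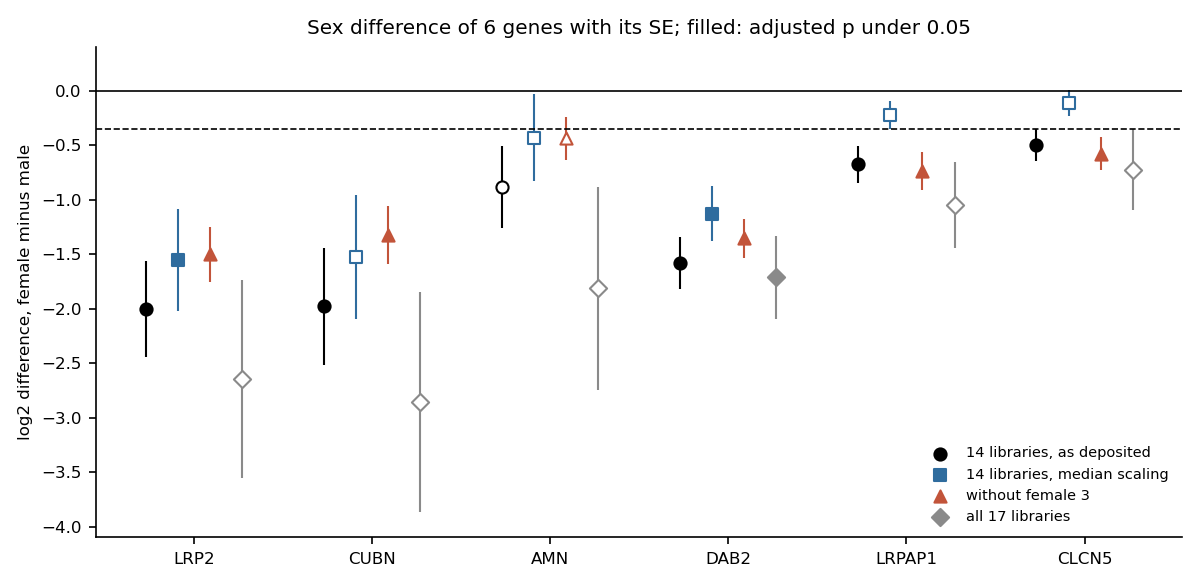
Female minus male difference in log2(signal + 1) with its SE for 6 genes under 4 settings, with filled symbols for a limma adjusted p under 0.05, a solid line at 0 and a dashed line at the median of all genes in the 14 libraries as deposited (-0.35). LRP2 and DAB2 are filled in 3 and 4 of the settings, and AMN is open in all 4.

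The proximal tubule list moved with the receptors. Its summed signal was 1080 to 6337 in females and 5739 to 12956 in males. Relative to the mean log2 level of that list within the same library, LRP2 averaged -0.71 ± 0.24 (SD, n = 6) for females against -0.79 ± 0.26 (SD, n = 8) for males, a difference of 0.08 (two-sided exact permutation test, adjusted p = 0.551). CUBN relative to the list differed by 0.11 (exact permutation adjusted p = 0.533). Both differences were smaller than the SD within either sex, and a p that misses the threshold does not show that the ratios were equal. DAB2 relative to the list had a difference of 0.51 (exact permutation adjusted p = 0.165), which passed when female 7 was left out (0.68, exact permutation adjusted p = 0.0291). Without female 3 it fell to 0.18 (exact permutation adjusted p = 0.410). Female 3 was at 1.68 in this ratio, and the next female at 0.10.

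AMN, LRPAP1 and CLCN5 were higher in females relative to the proximal tubule list, by 1.21, 1.41 and 1.59 (exact permutation adjusted p = 0.00799 for AMN and 0.0107 for the others). That list was itself higher in males, so any gene with a smaller sex difference is higher in females relative to it. The share of all genes whose ratio to the list would pass was not computed. Without female 3 the differences were 1.09, 0.79 and 0.96 (exact permutation adjusted p = 0.0187, 0.028 and 0.028). With all 17 libraries LRPAP1 did not pass (1.59, exact permutation adjusted p = 0.0776). Against series A or series B alone 0 of the 6 ratios passed, and AMN then had 1.07 (exact permutation adjusted p = 0.0649) and 1.43 (exact permutation adjusted p = 0.0714, with no lower value possible for 1 ratio alone).

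Ratios to LRP2 within each library, which scaling between libraries leaves almost as they are, were compared for the other 5 genes. LRP2 stood at the 1.07 percentile of differences, so nearly all tested genes are higher in females relative to it. A ratio higher in females thus follows largely from the choice of LRP2. The share of all genes whose ratio would pass was not computed. On the log2 scale CUBN to LRP2 averaged 0.87 ± 0.41 (SD, n = 6) for females against 0.84 ± 0.16 (SD, n = 8) for males, which differ by 0.03 (exact permutation adjusted p = 0.878). DAB2 to LRP2 differed by 0.42 (exact permutation adjusted p = 0.242), and it varied more among females, with an SD of 0.79, than the difference itself. AMN to LRP2 was 0.68 ± 0.45 (SD, n = 6) against -0.45 ± 0.37 (SD, n = 8), so AMN was higher relative to LRP2 in females by 1.12 (exact permutation adjusted p = 0.00333), and female 6, the lowest female, lay just under male 3, the highest male.

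LRPAP1 to LRP2 and CLCN5 to LRP2 were also higher in females, by 1.33 and 1.51 (both with an exact permutation adjusted p of 0.00722). Female 3 stood far out in both, at 3.70 and -0.32, where the next females were at 1.22 and -2.84. Without female 3 the differences fell to 0.76 and 0.92, and the exact permutation adjusted p was 0.0181 for both. The 5 ratios were tested over 3003 groupings, and against series A or series B alone 0 of the 5 passed. AMN to LRP2 then had a difference of 1.0 against series A (exact permutation p = 0.0108, adjusted p = 0.0541) and 1.33 against series B (exact permutation p = 0.0119, adjusted p = 0.0595), and the other 4 ratios had an unadjusted p above 0.05. Against series B the 6 females and 3 males allow 84 groupings, so 0.0119 is the smallest p they can give and 0.0595 the smallest adjusted p for 1 ratio alone at that value. AMN to LRP2 and CLCN5 to LRP2 did not overlap between the females and series B. With 3 males, the levels of 3151 of the 8805 genes tested did not overlap either. The share of all genes whose ratio to LRP2 would not overlap was not computed.

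The correlation of the genes with each other was computed for 15 pairs in log2(signal + 1). LRP2 and CUBN had Pearson r = 0.985 and Spearman rho = 0.978 over the 14 libraries (permutation adjusted p = 7e-05 and 0.00015). Within the 6 females r was 0.987 (exact permutation adjusted p = 0.0313), within the 8 males 0.947 (exact permutation adjusted p = 0.00446), and without female 3 and female 4, the 2 libraries farthest from the median of LRP2, it was 0.976. CUBN ranked 10 among 9532 genes by its r with LRP2, and LRP2 ranked 6 by its r with CUBN.

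LRP2 and DAB2 had r = 0.942 and rho = 0.930 (permutation adjusted p = 7e-05 and 0.00015), with 0.944 in females, 0.648 in males and 0.940 without the 2 farthest libraries. LRP2 and AMN had r = 0.896 and rho = 0.807 (permutation adjusted p = 0.00072 and 0.00174). The r was 0.953 in the females and 0.554 in the males (exact permutation adjusted p = 0.0417 and 0.299), and it fell to 0.714 without female 3. Median scaling without female 3 left 0.294. LRP2 spanned 15.1-fold in females and 2.20-fold in males, so r cannot be compared between them on equal terms. The SD of the AMN to LRP2 log2 ratio was 0.45 in females and 0.37 in males. CUBN and AMN likewise had a higher r in females, with 0.946 over the 14 libraries, 0.988 in females, 0.662 in males and 0.715 without female 3 and female 8.

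LRPAP1 and CLCN5 followed LRP2 less closely. LRP2 and LRPAP1 had r = 0.538 and rho = 0.815 (permutation adjusted p = 0.0749 and 0.00147), with r = -0.477 in females and 0.794 in males. LRP2 and CLCN5 had r = 0.371 and rho = 0.653 (permutation adjusted p = 0.242 and 0.0159), with r = -0.843 in females (exact permutation adjusted p = 0.0417) and 0.483 in males. The rho within females was -0.143 for LRPAP1 and -0.829 for CLCN5. Over the 13 libraries of both sexes without female 3, r was 0.799 and 0.707, values that include the difference between the sexes. LRPAP1 and CLCN5 correlated with each other at r = 0.774 and rho = 0.723 (permutation adjusted p = 0.00245 and 0.0093), with 0.717 in females and 0.288 in males, and at 0.186 after median scaling.

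Over the 14 libraries 8 of the 15 pairs passed in r, all positive. Within females 5 passed with a positive sign and 3 with a negative one, the pairs of CLCN5 with LRP2, CUBN and AMN. Within males 1 passed, LRP2 with CUBN. Adding the muscle-rich libraries, low in all 6 genes, put every pair between 0.795 and 0.994.

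**Figure D3:**
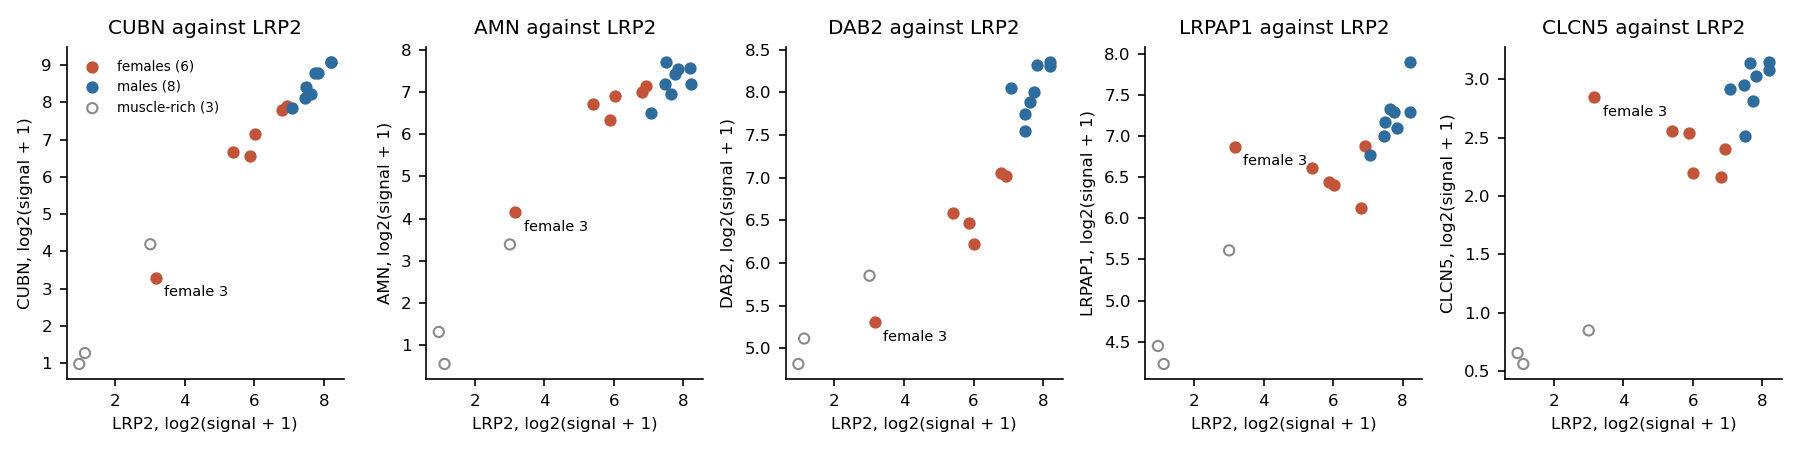
Log2(signal + 1) of CUBN, AMN, DAB2, LRPAP1 and CLCN5 against that of LRP2 in 6 females (red), 8 males (blue) and the 3 muscle-rich libraries (open grey), 1 point per library. CUBN lies along 1 line with LRP2 (r = 0.985 over the 14). Female 3 lies far to the left of the other females in every panel. It is the lowest female for CUBN, AMN and DAB2, among the 2 highest for LRPAP1 and the highest for CLCN5.

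Against marker lists 24 relations were computed. LRP2, CUBN, DAB2 and AMN had r = 0.987, 0.985, 0.952 and 0.903 with the proximal tubule list over the 14 libraries, with rho = 0.987, 0.965, 0.938 and 0.776 (permutation adjusted p of r = 8e-05 for the first 3 and 0.0012 for AMN). Within males the first 3 were at 0.851, 0.884 and 0.859 and AMN at 0.475. LRPAP1 and CLCN5 were at 0.544 and 0.368, and without female 3 at 0.829 and 0.724, values that include the difference between the sexes. Within females they were at -0.393 and -0.791, and within males at 0.653 and 0.374. CLCN5 in females followed the thick ascending limb list, with r = 0.937 (exact permutation adjusted p = 0.0333), and LRP2 ran against it with r = -0.925 (exact permutation adjusted p = 0.0222). In males the same pairs were at -0.04 and 0.115. CLCN5 in females followed the fibroblast list (4 of 6 genes) as closely, with r = 0.954 (exact permutation adjusted p = 0.0222), against 0.108 in males. Female 3 had the highest female value of CLCN5 and of both lists.

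By a fixed rule the genes most like each member over the 14 libraries were taken from those with at least median level. For LRP2 they included AK4, a mitochondrial adenylate kinase (r = 0.989), IYD, an iodotyrosine deiodinase (0.988), XPNPEP2, a membrane aminopeptidase (0.988), and UGT1A9, a glucuronosyltransferase of a locus with shared exons whose reads may be split between its members (0.987). CUBN was nearest to the organic anion transporter SLC22A11 (0.995), the pyrimidine catabolism enzyme UPB1 (0.991) and XPNPEP2 (0.991). AMN was nearest to the urate transporter SLC22A12 (0.984), GGT1, a gamma-glutamyltransferase of the brush border (0.982), and HAO2, a hydroxyacid oxidase (0.973). In males alone AMN and SLC22A12 had r = 0.945, and AMN and LRP2 had 0.554. SLC22A12 was picked for its r over libraries that include these males, so these values cannot be compared on equal terms.

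DAB2 was nearest to ACP5, a lysosomal acid phosphatase (0.985), CPT2 of mitochondrial fatty acid oxidation (0.975) and PBLD (0.974). LRPAP1 was nearest to ATP5A1, a subunit of mitochondrial ATP synthase (0.948), UTP4 of ribosome biogenesis (0.943) and RNF149 (0.937). CLCN5 was nearest to NECAP1, a clathrin-associated endocytic protein (0.937), DLAT of the pyruvate dehydrogenase complex (0.936) and WDR11 (0.932). The 3 genes nearest to LRPAP1 and the 3 nearest to CLCN5 had lower r after median scaling, between 0.615 and 0.789, whereas those of LRP2, CUBN, AMN and DAB2 lay between 0.953 and 0.993.

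In the authors' deposited table of females, LRP2, CUBN, the DAB2 transcript X3 and the AMN transcripts X1, X4 and X5 shared the pink co-expression module of 1064 transcripts (3.99% of the table). In the authors' deposited table of males, LRP2, CUBN, DAB2 X3, LRPAP1 X1 and CLCN5 shared the blue module of 3027 transcripts (17.7% of the rows held), and AMN X1 was in the greenyellow module. These modules were built by the authors from the same libraries, the muscle-rich ones included, and are not independent of the values above.

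Transcripts of 1 gene did not all behave alike. DAB2 X3 held 88.7% of the DAB2 signal on average over the 14 libraries, with 23.4 to 119 in females and 162 to 300 in males, and it carried the relation with LRP2 (r = 0.958, 0.958 in females and 0.621 in males). DAB2 X1 was at 6.02 to 13.0 in females and 10.2 to 20.8 in males, and had r = 0.368 with LRP2, with -0.851 in females. At transcript level, where 26.9% of 15968 transcripts were called, X3 had a difference of -1.73 (SE 0.29, limma adjusted p = 0.00074) and X1 one of -0.65 (SE 0.18, limma adjusted p = 0.0146). With median scaling X3 stayed called at -1.29 (limma adjusted p = 0.0108) and X1 was not, at -0.24 (limma adjusted p = 0.326). Of the 15968 transcripts 2928 were called with that scaling.

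DAB2 X3 and X1 parted most in the muscle-rich libraries. X3 was at 1.22, 11.1 and 6.47 in female 1, female 2 and male 6, whereas X1 was at 23.3, 13.0 and 46, so X1 took 69.2%, 48.0% and 81.2% of DAB2 there. In the 14 libraries X1 took 4.01% to 12.8%, except in female 3 with 33.7%. The share of X1 averaged 13.2% ± 10.5 (SD, n = 6) for females against 5.90% ± 1.36 (SD, n = 8) for males (exact permutation adjusted p = 0.0110 over 3 shares tested), and 9.14% ± 3.53 (SD, n = 5) in females without female 3 (exact permutation adjusted p = 0.0357). With all 17 libraries the difference in share did not pass (exact permutation adjusted p = 0.384). The fibroblast list (4 of 6 genes, led by DCN) was at 8.52, 7.52 and 9.71 in the muscle-rich libraries and at 4.29 to 6.65 in the 14, with its highest value in female 3. Its summed signal was 81.3 to 497 in females, 99.8 to 289 in males, and 1483, 759 and 3659 in the muscle-rich libraries. The log2 level of X1 and the mean log2 level of that list had r = 0.200 and rho = 0.262 over the 14 libraries (permutation p = 0.492 and 0.368, 1 relation). The r was 0.694 in females and 0.319 in males (exact permutation p = 0.107 and 0.444), 0.358 without female 3 and female 4, the 2 libraries farthest from the median of the list, and 0.697 with all 17 libraries.

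**Figure D4:**
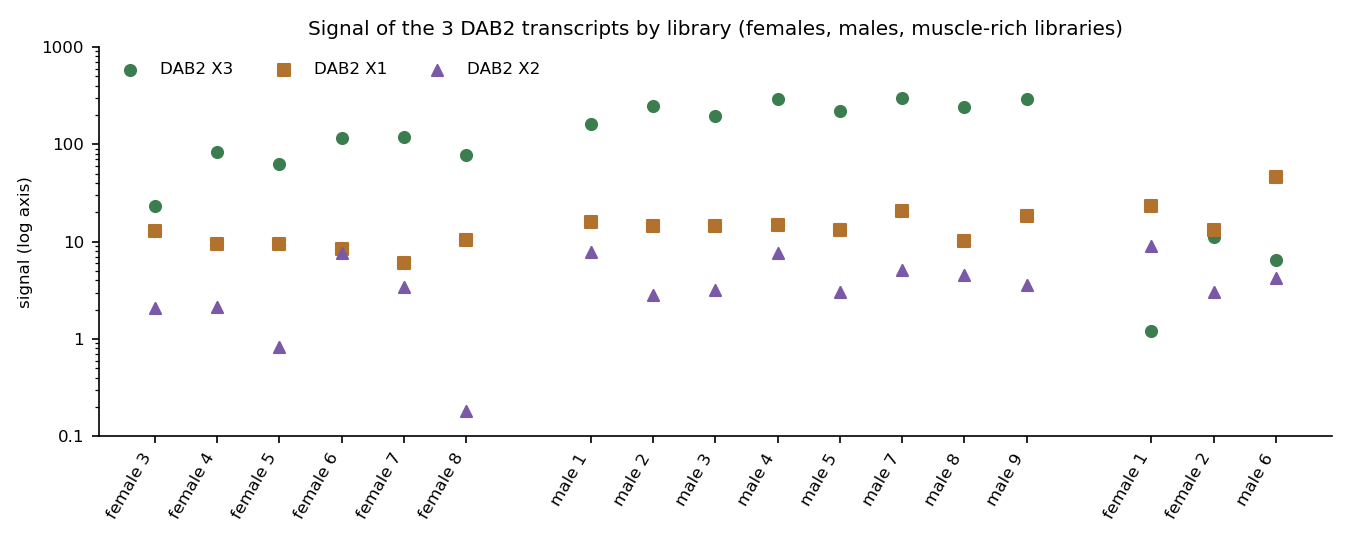
Signal of DAB2 transcripts X3 (green), X1 (brown) and X2 (purple) in each library on a log axis, ordered as 6 females, 8 males and 3 muscle-rich libraries. X3 is the highest of the 3 in all 14 libraries, and X1 exceeds it in female 1 (23.3 against 1.22), female 2 (13.0 against 11.1) and male 6 (46 against 6.47).

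AMN transcripts also differed. AMN X1, the most abundant, averaged 50.8 ± 25.9 (SD, n = 6) for females against 106 ± 31.0 (SD, n = 8) for males, a difference of -1.29 (SE 0.43, limma adjusted p = 0.0344). AMN X2 was 4.81 ± 3.06 (SD, n = 6) against 2.20 ± 0.61 (SD, n = 8), and its difference of 0.71 (SE 0.29) did not pass (limma adjusted p = 0.0803). Of all transcripts 26.9% were called in this setting. With median scaling the X1 difference was -0.85 and no longer called (limma adjusted p = 0.195), whereas X2 was called higher in females at 1.04 (limma adjusted p = 0.0295). So were 1230 of the 15968 transcripts. Without female 3 X1 was called at -0.79 (limma adjusted p = 0.0257) and X2 at 0.91 (limma adjusted p = 0.0207), beside 4475 of 15728 transcripts. X1 made up 49.5% ± 7.00 (SD, n = 6) of AMN for females against 66.3% ± 6.57 (SD, n = 8) for males (exact permutation adjusted p = 0.0015, and 0.098 with all 17 libraries). The X2 share was 5.57% ± 2.97 (SD, n = 6) for females against 1.49% ± 0.54 (SD, n = 8) for males (exact permutation adjusted p = 0.001). With each gene represented by 1 transcript, X1 for AMN, the gene was called (limma adjusted p = 0.0305), beside 3206 of 9512 genes. The sum of its 6 transcripts was not called. By their identifiers X1 and X2 are coding models and X3 to X6 non-coding ones, though the biotype given is protein coding for all. X3 to X6 averaged 11.1%, 11.5%, 9.34% and 5.82% of AMN over the 14 libraries. The AMN level, its missed call and its ratios include them.

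OCRL (gene33435, NC_018172.2, 118352173 to 118403361, plus strand, 3 transcripts), on the same sequence as CLCN5, had signals of 13.3, 9.77, 6.62, 6.68, 7.68 and 6.96 in females 3 to 8. Female 3 was the highest and the spread was 2.0-fold, against 15.1-fold for LRP2 in the same animals. Within these 6 females OCRL had r = -0.890 with LRP2 and 0.881 with CLCN5 (exact permutation p = 0.0292 and 0.0153, adjusted p = 0.0875 for both over 6 relations), with rho = -0.600 and 0.886. Neither passed after adjustment, and with 6 animals female 3 weighs heavily. The 3 OCRL transcripts had almost fixed proportions, X2 at 1.26 times X1 in 7 of the 8 females of the table and 0.276 times in female 4. X3 was at 0.162 times X1 in all 8. Proportions this alike between animals need not be measured levels of each transcript. How reads shared by transcripts were divided is not given, which also limits the shares of DAB2 and AMN transcripts.

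The level left in the muscle-rich libraries differed between the members. LRP2 was at 1.18, 0.947 and 7.04 in female 1, female 2 and male 6, which is 0.764%, 0.612% and 4.55% of the median of the 14 libraries. CUBN was at 0.549%, 0.377% and 6.69% of that median and AMN at 0.353%, 1.12% and 7.08%. In female 1 the signals of LRP2, CUBN and AMN equalled about 5, 6 and 2 of the smallest increments of that library, so they rest on few increments. The median of all tested genes was at 89.3%, 79.8% and 72.9% in the same libraries.

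DAB2 kept 16.8%, 13.6% and 28.4%, LRPAP1 14.5%, 17.0% and 39.2% and CLCN5 7.74%, 9.36% and 13.1% of the median of the 14. The CLCN5 signals equalled about 2.0, 3.6 and 2.8 of the smallest increments in female 1, female 2 and male 6. Its percents thus also rest on few increments. OCRL went the other way, with 21.5 in female 1 and 24.6 in female 2, or 294% and 336% of the median of the other 6 females. The median gene of the female table stood at 143% and 137% there. For LRP2, male 6 at 7.04 lay just below female 3 at 7.98, and for CUBN male 6 at 17.3 lay above female 3 at 8.83. The muscle-rich libraries were set apart by measured genes, so these values are given without a test.

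**Figure D5:**
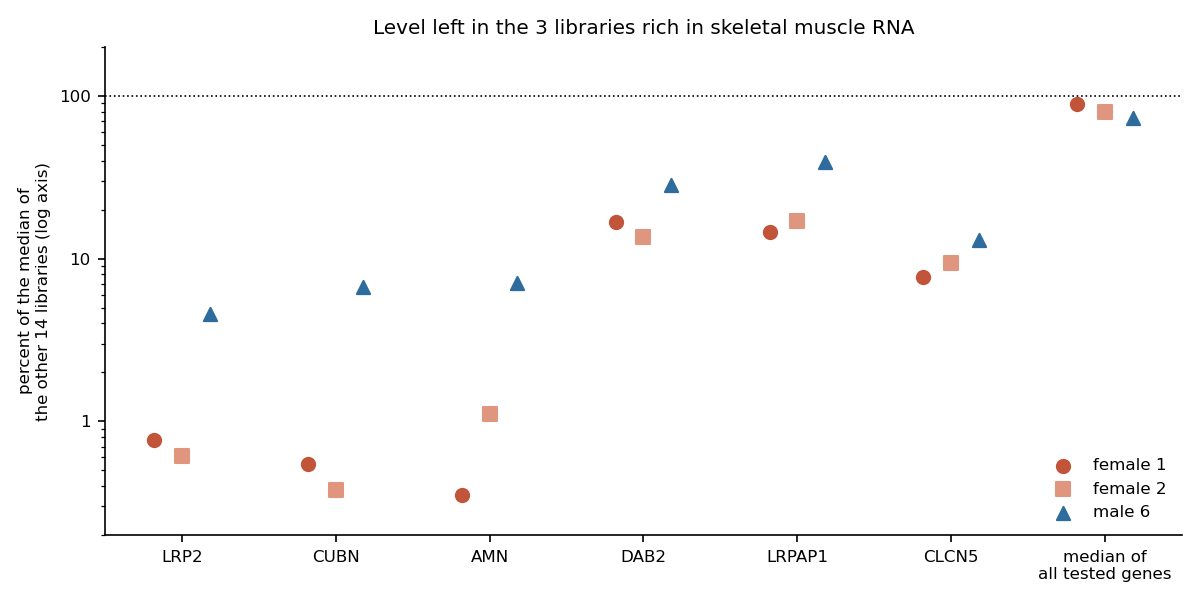
Signal of 6 genes in female 1, female 2 and male 6 as a percent of the median of the other 14 libraries on a log axis, beside the median of all tested genes, with a dotted line at 100%. LRP2, CUBN and AMN lie between 0.353% and 7.08%, and CLCN5, which rests on few increments, between 7.74% and 13.1%. DAB2 and LRPAP1 lie between 13.6% and 39.2%, and the median gene between 72.9% and 89.3%.

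Genes that act with these members were read from 6 lists. In the list of clathrin coat and tail adaptors, 8 of 17 tested genes were called higher in males and 0 higher in females. Of all tested genes 36.0% were called higher in males. The median difference was -0.42 against -0.35 for all genes. PICALM, which assembles clathrin coats, averaged 37.8 ± 4.89 (SD, n = 6) for females against 91.5 ± 18.0 (SD, n = 8) for males (-1.24, limma adjusted p = 5.29e-05). CLTC, the clathrin heavy chain, and EPS15, an endocytic adaptor, had differences of -0.99 and -1.17. The scaffold SLC9A3R1, the list's nearest gene to LRP2 (r = 0.922), had -1.36.

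Among genes of early endosomes and recycling, 9 of 15 were called higher in males, beside 36.0% of all tested genes, and the median was -0.51. The lipid kinase PIK3C2A (-1.21), the sorting nexin SNX1 (-1.07) and the recycling ATPase EHD1 (-0.69) had the smallest p, and EHD1 was also nearest to LRP2 with r = 0.774. Among 20 genes of endosome acidification, 14 were called higher in males, beside the same 36.0%, with a median of -0.62. These included the proton pump subunits ATP6V1G1 (-0.91), ATP6V1C1 (-1.12) and ATP6V1A (-1.30), and ATP6V1B2 was the nearest to LRP2 (r = 0.969) with 62.0 ± 26.8 (SD, n = 6) against 144 ± 32.4 (SD, n = 8).

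Of 16 lysosome genes, 13 were called higher in males, beside 36.0% of all tested genes, with a median of -0.77. Among those called were the membrane protein LAMP2 (-1.08) and the proteases CTSB (-1.09), CTSA (-0.92) and CTSL (-1.06, r = 0.868 with LRP2). The list of cargo handling, ligands carried by the receptors and their partners, had the largest median of the 6 lists, -1.65. In it 4 of 7 genes were called higher in males, beside the same 36.0%. STRA6, the cell surface receptor for retinol-binding protein, averaged 5.31 ± 5.78 (SD, n = 6) for females against 48.6 ± 24.3 (SD, n = 8) for males. SELENOP, the plasma selenium carrier, TCN2, which carries vitamin B12, and RBP4, which carries retinol, had differences of -1.67, -1.65 and -2.38.

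Other receptors of the LDL receptor family gave a mixed list, with a median of -0.65. Of 5 tested genes 2 were called higher in males, near the 36.0% of all tested genes, and 1 higher in females. LRP3 (-1.08) and LRP12 (-0.76) were higher in males. LRP5, a coreceptor of Wnt signalling, was higher in females with 7.20 ± 3.85 (SD, n = 6) against 3.12 ± 0.96 (SD, n = 8) (0.86, limma adjusted p = 0.0271), and its r with LRP2 was -0.536.

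With median scaling, the genes called higher in males became 5 of 17 for clathrin and adaptors, 2 of 15 for early endosomes, 7 of 20 for acidification, 6 of 16 for the lysosome, 4 of 7 for cargo and 1 of 5 for the LDL receptor family, where 14.9% of all tested genes were called higher in males. Called higher in females were then 2, 0, 1, 0, 1 and 1 genes in the same order. The medians after scaling were 0.03, -0.09, -0.18, -0.36, -1.19 and -0.23, beside 0.03 for all genes. With all 17 libraries the counts called higher in males were 3, 3, 6, 9, 3 and 0, beside 12.9% of all tested genes, and 0 genes of the 6 lists were called higher in females. The median r with LRP2 was 0.412, 0.418, 0.567, 0.674, 0.879 and 0.086 in the same order, against 0.275 over all tested genes.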

How the data were processed

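RNA was isolated from kidney cortex biopsies of 17 baboons and sequenced as stranded mRNA libraries, per the labels' protocols. Per the file headers, the tables deposited by the authors, 1 for each sex, hold a signal for every transcript in every library and a module colour, and Partek is named per the submitters' processing notes. For the unit, scaling, aligner, genome build and any length correction, nothing is given in the sources used here, and positions were copied from the tables. The lowest deposited value was 1, taken as an offset and subtracted. The male table was held in part: it gave 17119 complete rows, all among the 26644 transcripts of the female table, and 1 partial row that was not used here.

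Transcripts in both tables were summed per gene. Testing took the genes that reached a signal of 1 in 6 or more of the 14 libraries and used limma 3.58.1 in R 4.3.3 (log2(signal + 1), trended prior variance, two-sided), Benjamini-Hochberg adjusted over all tested genes, with a threshold of 0.05. Differences on this scale understate the change of low genes. Low values were whole multiples of a smallest increment, within a tolerance of 0.1, in 57.0% to 71.4% of cases, too few to recover whole reads, and count tests were left out. The script was tested on simulated data. Correlations used 100000 permutations, or all orders within a sex, and 1e-05 is the smallest p these can give. Ratios and shares used exact permutation tests, whose p-values over 14 libraries cannot go below 0.000333. Python 3.11.15, numpy 2.4.6 and scipy 1.17.1 were used. Libraries are separate animals by their labels.

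The members, the gene lists and the libraries set apart were chosen with earlier results of these data known. Genes named are the members, the 5 (LRP2) or 3 (each other member in both tables) nearest genes with at least median level, up to 3 called genes of smallest p and the gene nearest LRP2 per pathway list, and up to 3 of highest signal per marker list. A gene that this rule names is not reported here. Alternatives covered the libraries used, scaling, pseudocount, filter, trend, age, male series, transcript choice and leaving out each library. The median-scaled runs with all 17 libraries or without female 3, the transcript-level fits, the marker relations, the ratios to the proximal tubule list, the shares and the relation of DAB2 X1 to the fibroblast list were added after the data were seen.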

Additional observations from a re-analysis of the deposited data

Results flagged for a closer look

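Values were checked in each sex for a lowest or highest library whose gap to the next, divided by the range of the group, exceeded the 95% critical value of Dixon's test. This was done for 44 sets of values over the 14 libraries, and 9 were found, where chance gives about 5% of sets. The sets share libraries and genes, so they are not independent.

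Female 3 accounted for 6 of the 9. It was the lowest of 6 females in log2 level of CUBN, at 3.30 with the next female at 6.57, and of AMN, at 4.15 with the next at 6.35. It was also lowest in the level of the proximal tubule list, at 3.63 with the next at 6.48. It was the highest female in the log2 ratio of LRPAP1 to the proximal tubule list, at 3.25 with the next at 0.13, and of CLCN5 to that list, at -0.78 with the next at -3.93. Its share of DAB2 in transcript X1 was 33.7% with the next female at 12.8%.

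Male 2 was the highest of 8 males in the log2 ratio of DAB2 to LRP2, at 0.98 with the next at 0.48. Male 1 was the highest male in the log2 ratio of LRP2 to the proximal tubule list, at -0.21 with the next at -0.78. Female 6 was the lowest female in the level of the intercalated cell list, at 4.01 with the next at 4.93.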

How the results depend on the processing

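The direction of each member difference was kept under all alternatives except for AMN, and the calls of LRPAP1 and CLCN5 depended on the scaling. The cause of these changes was not tested. Against 3648 of 9533 tested genes called (3436 higher in males) and 5 called members, all 17 libraries gave 1279 of 9638 (1241) and 1. With median scaling as well they gave 378 of 9638 (247) and 1. Median scaling of the 14 gave 1422 of 9533 called higher in males and 2 members, and upper quartile scaling 1464 of 9533 and 3. Median scaling without female 3 gave 1373 of 9462 and 3. A filter minimum of 10 gave 2226 (2119) of the 4321 genes tested, a larger share of fewer genes. It called 4 of the 5 members tested, with CLCN5 below it. Males of series A alone gave 1913 of 9198 (1846) and 3, with fewer samples. Age as a term gave 1 (0) and 0.

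Calls were lost as follows, as log2 differences. With all 17 libraries LRP2, CUBN, LRPAP1 and CLCN5 had -2.65, -2.86, -1.05 and -0.73, and with median scaling as well -2.28, -2.49, -0.66 and -0.41. With age as a term LRP2, CUBN, DAB2, LRPAP1 and CLCN5 had -0.78, -0.28, -1.01, -0.77 and -0.82. Median scaling of the 14 left CUBN, LRPAP1 and CLCN5 at -1.53, -0.22 and -0.11, upper quartile scaling left LRPAP1 and CLCN5 at -0.23 and -0.13, and median scaling without female 3 left them at -0.25 and -0.16. Against series A CUBN and CLCN5 had -1.72 and -0.46, and against series B CLCN5 had -0.57. AMN turned to 0.41 with age as a term and 0.055 with median scaling without female 3, and was called at -1.29 with 1 transcript per gene. EHD1 turned to 0.016 with all 17 libraries and median scaling.

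Leaving out each library in turn gave 3095 to 4021 called genes, of 9450 to 9492 tested. Of the called genes 2909 to 3805 were higher in males, and the 5 member calls were kept each time. The differences ranged from -2.25 to -1.50 for LRP2, -2.25 to -1.33 for CUBN, -1.04 to -0.44 for AMN, -1.71 to -1.36 for DAB2, -0.74 to -0.58 for LRPAP1 and -0.58 to -0.44 for CLCN5. AMN was called without female 7 (limma adjusted p = 0.0457) and without male 2 (limma adjusted p = 0.0493), with a range of 0.0457 to 0.115 over the 14 runs.

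The ratio of CUBN to LRP2, near 0, turned to -0.21 with all 17 libraries and -0.068 against series B, and ranged from -0.054 to 0.17 when libraries were left out. Calls were lost for AMN to LRP2 against series A (1.0) and series B (1.33), for LRPAP1 to LRP2 with all 17 libraries (1.60), series A (1.28) and series B (1.41), and for CLCN5 to LRP2 against series A (1.34) and series B (1.79). Against series B, 84 groupings allow no adjusted p under 0.0595 for 1 ratio alone, so the loss for AMN there says nothing of stability. LRP2 and CUBN to the proximal tubule list turned to -0.010 and -0.22 with all 17 libraries. DAB2 and LRPAP1, positive over the 14 libraries, had r = -0.419 within females and -0.074 centred within each sex.

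No paired analysis was possible because replicate numbers only name animals, and each animal gave 1 library of 1 sex. Read depth is unknown, so low values such as CLCN5 in the muscle-rich libraries carry no interval.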
